A study of Mus musculus with 4 samples.

Results

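The genes described here encode the transcription factors that switch on the genes of DNA replication and of mitosis, together with the proteins that hold them back. They are 10 of the 18193 genes measured: E2f1, E2f2, E2f3, E2f7, E2f8, Rb1, Rbl1, Lin9, Mybl2 and Foxm1. They were taken by name, as every probe set whose platform annotation lists one of them and no other gene, which gave 24 of 45037 probe sets. A probe set is a small set of oligonucleotide probes read together as a single value. The genes were chosen by their place in the cell cycle and selected on intensities seen to differ between the knockout and control arrays, so those differences are given below as a description and not as a test.

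Expression was measured on 4 Affymetrix arrays of crypt epithelium from the mouse jejunum, the pits of the small intestine that hold stem cells and dividing progenitors. In the 2 knockout samples the mice carried floxed YY1 alleles (YY1f/f) and Vil-Cre-ERT2, a Cre recombinase that tamoxifen makes active and that the Villin promoter expresses in gut epithelium. The label gives tamoxifen for 4 days and does not make clear whether the 2 control samples received it, and their genotype is named only as control. All 4 samples carry the strain label C57BL/6J enriched. The sources used here give no age for the mice. The titles call the replicates biological, but nothing says which animals they came from or whether animals were pooled.

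Activator E2F proteins bind DNA with a DP partner and turn on genes of the S phase. The pocket proteins, which include the retinoblastoma protein, bind E2F and silence it until cyclin-dependent kinases release it. In dividing cells the MuvB core, of which Lin9 is a subunit, first joins Mybl2 and then Foxm1 to drive the genes of G2 and mitosis. E2f7 and E2f8 are atypical E2F proteins that bind without a DP partner and repress the same S-phase genes late in the cycle. In the intestine these programmes run mainly in the dividing cells of the crypt.

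Values are intensities as deposited, and their medians were 139 to 143 in the 4 arrays. The median of 27 control probe sets for bacterial genes, 31.9 to 35.6, marks the background. Yy1 itself, the deleted gene, went from 1648 and 1681 in the control arrays to 69.4 and 68.1 in the knockout arrays with its brightest probe set, and its other 3 probe sets were lower too. Log2 differences are knockout minus control on log2(intensity + 16), with the standard error (SE) of the limma fit and n = 2 arrays per group. A probe set was called at a Benjamini-Hochberg adjusted p under 0.05 by limma, with the adjustment over all 45037 probe sets. On arrays of a whole tissue preparation, fewer cells of a type and less RNA per cell cannot be told apart. In the fit over genes, 13.4% of all genes were called higher and 10.9% lower. Of 9 measured enterocyte markers, 6 were called lower and none higher. Their summed intensity was 75307 and 76041 in the control arrays, and 39893 and 57221 in the knockout arrays. Tuft cell markers had 4 of 7 called lower, and sums of 1329 to 1467 in control and 912 to 1013 in knockout arrays. Goblet markers had 2 of 8 called lower, with sums of 44319 to 46178 and 35219 to 41414. For stem cell markers, 1 of 10 was called lower, Olfm4, with sums of 10448 to 10501 and 8479 to 8777. Olfm4 was the brightest of them, at 5463 and 5279 in control and 3662 and 3332 in knockout arrays, so it weighs heavily in these sums. The median log2 difference of the 10 stem cell markers was -0.02. Both knockout arrays lay above both controls in 2 of them and below in 3, against 31.5% and 28.4% of all probe sets. Immune and mesenchyme markers had 2 of 9 called lower each, and mesenchyme sums were 1385 to 1556 in control and 1122 to 1309 in knockout arrays. The immune sums were 9117 to 9446 and 8461 to 9335, most of it from Lyz2. Without Lyz2, a choice made after seeing the values, they were 1567 to 1601 and 1177 to 1359. Paneth cell and enteroendocrine sums overlapped between the groups. None of the measured markers was at the lowest deposited value, 1. But Cd79a of the immune list read 35.6 to 40.4, close to background. Itgam of the immune list and Acta2 and Lum of the mesenchyme list were dim too, between 43.6 and 62.7. Lgr5 of the stem cell list was similarly dim, between 59.55 and 69.15. Pdgfra, called lower in the mesenchyme list, read 45.9 and 50.9 in the knockout arrays. The log2 difference between 3' and 5' control probe sets, a measure of RNA integrity, for Gapdh was 1.42 ± 0.0316 (SD, n = 2) in the control group and 1.68 ± 0.0438 in the knockout group, and for Actb 0.26 ± 0.0255 and 0.31 ± 0.0262. The part of cell makeup and RNA quality in the differences that follow was not tested.

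Across the 24 probe sets, 10 were called higher in the knockout and 1 lower, while 10.9% of all probe sets were called higher and 9.09% lower. Both knockout arrays lay above both control arrays for 15 of the 24, which holds for 31.5% of all probe sets, and below them for 2, which holds for 28.4% of all. Since the genes were picked with these differences known, nothing is read from these shares. The median log2 difference of the 24 was 0.30, against 0.01 over all probe sets. At least 1 probe set was called higher in 8 of the 10 genes, E2f2, E2f3, E2f7, E2f8, Rbl1, Lin9, Mybl2 and Foxm1. Foxm1 also had a probe set called lower. With the brightest probe set of each gene alone, only E2f7, E2f8 and Mybl2 were called higher, and Foxm1 was called lower. The share of all genes with at least 1 called probe set was not computed, so nothing is read from the count of 8. Of the 24 probe sets, 22 had a mean over 100 in at least 1 group, and the other two, of Rbl1 and Foxm1, lay at background. The 2 knockout arrays differed in degree: knockout replicate 1 stood above knockout replicate 2 in 14 of the 15 probe sets in which both exceeded the controls. The enterocyte sum was lower in knockout replicate 1 as well. The number of calls depended on single arrays. Without control replicate 1, 4 were called higher, without control replicate 2 there were 2, and without knockout replicate 1 there were 3, with 0 called lower in each of these fits, while without knockout replicate 2 the counts were 10 higher and 2 lower. E2f7 and the Foxm1 probe set 1448834_at were called in all 4 of these fits. With a pseudocount of 4, the calls of E2f2 1455790_at, E2f3 1427462_at, E2f8 1444319_at and Mybl2 1454946_at were lost, which left 6 called higher.

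**Figure D1:**
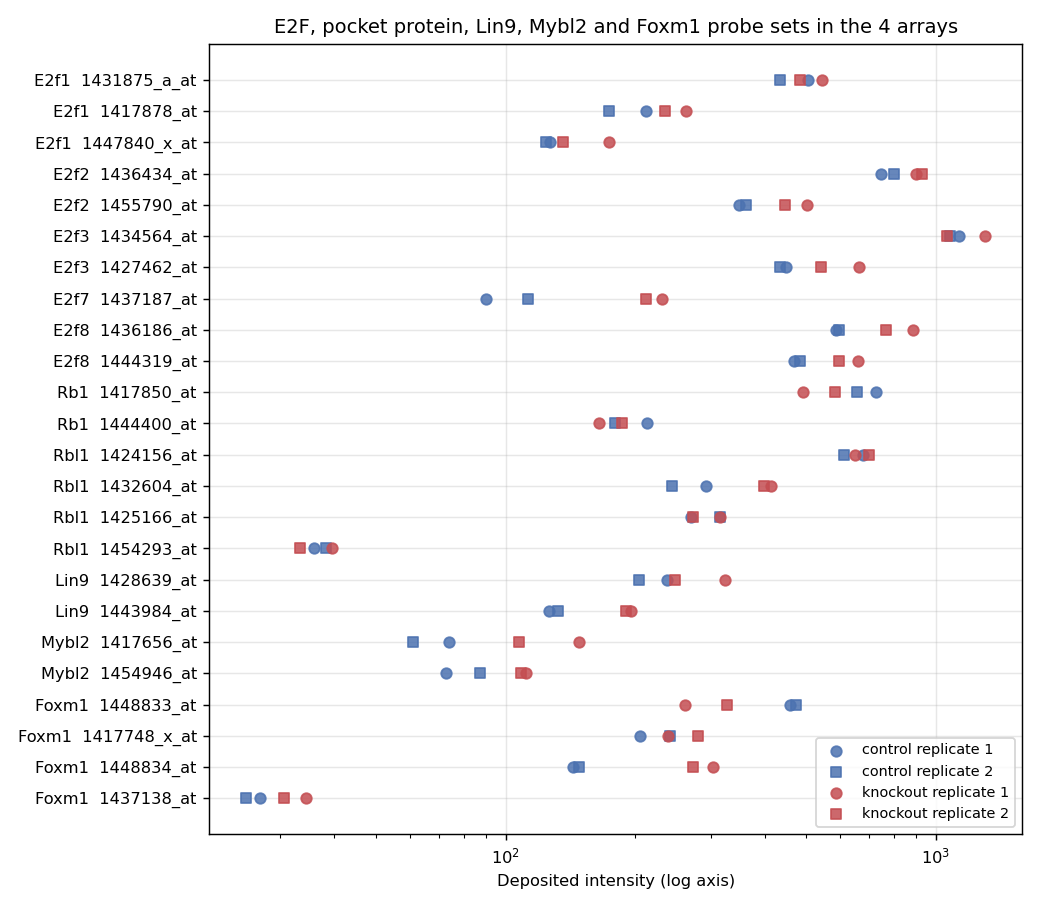
Deposited intensity (log axis) of the 24 probe sets in the 4 arrays, with controls in blue, knockouts in red, circles for replicate 1 and squares for replicate 2. In 15 rows both red points lie to the right of both blue points, and in 2 rows, of Rb1 and Foxm1, both lie to the left.

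Of the 7 probe sets of the activator E2F genes, 2 were called higher, of E2f2 and E2f3, and in 5 both knockout arrays lay above both controls. Over all probe sets the shares were 10.9% and 31.5%. E2f1, the founding activator E2F, had 3 probe sets and none was called. Its brightest, 1431875_a_at, read 504 and 434 in the control arrays and 545 and 483 in the knockout arrays, which overlap. Probe set 1417878_at read 212 and 174 in control and 263 and 234 in knockout arrays (log2 0.34 ± 0.13). Probe set 1447840_x_at read 127 and 124 against 174 and 136 (0.26 ± 0.13). In both of these the knockout arrays were the higher ones, but the gap in 1447840_x_at came mostly from knockout replicate 1.

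E2f2, another activator E2F, was higher in both knockout arrays with both of its probe sets. Probe set 1455790_at, which was called, read 348 and 361 in control and 502 and 445 in knockout arrays (0.40 ± 0.11). Probe set 1436434_at read 746 and 800 against 900 and 930 (0.24 ± 0.10) and was not called. E2f3, a further activator E2F, differed between its 2 probe sets. Probe set 1427462_at read 447 and 435 in control and 662 and 541 in knockout arrays (0.43 ± 0.12) and was called. Probe set 1434564_at read 1130 and 1077 against 1304 and 1062, so knockout replicate 1 was highest and knockout replicate 2 lowest of the 4.

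The atypical E2F genes were higher in both knockout arrays with all 3 of their probe sets, and all 3 were called. Over all probe sets, 31.5% were higher in both knockout arrays and 10.9% were called higher. E2f7 had the largest log2 difference of the 24 probe sets. It read 89.9 and 113 in the control arrays and 231 and 212 in the knockout arrays, so the groups lay far apart (1.02 ± 0.13, 2.03-fold on this scale). E2f8, its close relative, read 587 and 596 in control and 885 and 767 in knockout arrays with probe set 1436186_at (0.47 ± 0.11). With 1444319_at it read 467 and 483 against 658 and 595 (0.39 ± 0.10). The smaller of the 2 knockout values was in each case that of knockout replicate 2, as for E2f7.

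**Figure D2:**
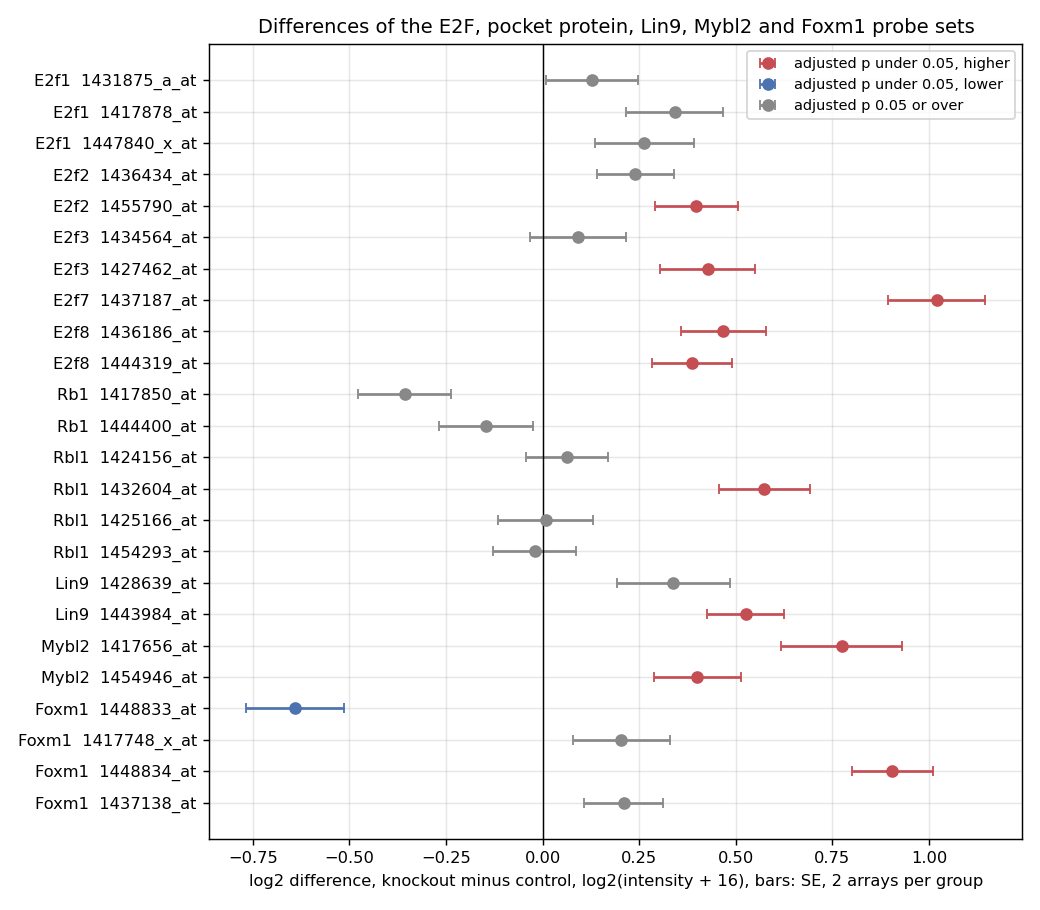
Log2 difference of each probe set (point) with its SE (bar), knockout minus control on log2(intensity + 16), 2 arrays per group, and red or blue for probe sets called higher or lower. E2f7 lies farthest right at 1.02, and the Foxm1 rows lie on both sides of zero, at 0.91 and -0.64.

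The promoters of these genes are shown because E2F proteins are known to control E2F genes. The letters of the binding site were not used to choose the genes. But the genes were chosen as E2F and cell cycle genes, for which such control is known, so the site is not independent of the choice. Windows from 250 bases before to 50 bases after the annotated start of transcription, from RefSeq on the mouse build GRCm38.p6, were matched by symbol for 7 of the 10 genes, in 9 windows. Foxm1, Rb1 and Lin9 were not matched. The stretch before the start is given 5′ to 3′ for E2f3 (chr13:29986064-29986313, minus strand), E2f7 (chr10:110745189-110745438, plus strand), E2f8 (chr7:48881597-48881846, minus strand) and Rbl1 (chr2:157204535-157204784, minus strand), the windows with an E2F heptamer before the start. Capitals mark an E2F heptamer, which is TTGGCGC or one of its close variants TTCCCGC and also TTCGCGC as well as TTGCCGC, or the letters TTTGAA of the cell cycle homology region, the site through which MuvB complexes bind G2/M promoters, each on either strand.
E2f3: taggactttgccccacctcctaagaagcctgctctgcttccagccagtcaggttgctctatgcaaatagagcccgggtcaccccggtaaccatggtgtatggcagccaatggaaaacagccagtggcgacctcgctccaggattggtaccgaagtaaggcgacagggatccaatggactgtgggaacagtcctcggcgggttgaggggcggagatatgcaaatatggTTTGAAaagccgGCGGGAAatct
E2f7: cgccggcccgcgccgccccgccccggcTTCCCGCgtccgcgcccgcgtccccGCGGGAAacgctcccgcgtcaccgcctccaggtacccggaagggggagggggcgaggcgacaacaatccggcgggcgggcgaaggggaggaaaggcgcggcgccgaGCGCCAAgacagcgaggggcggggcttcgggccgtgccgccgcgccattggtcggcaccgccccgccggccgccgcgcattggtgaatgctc
E2f8: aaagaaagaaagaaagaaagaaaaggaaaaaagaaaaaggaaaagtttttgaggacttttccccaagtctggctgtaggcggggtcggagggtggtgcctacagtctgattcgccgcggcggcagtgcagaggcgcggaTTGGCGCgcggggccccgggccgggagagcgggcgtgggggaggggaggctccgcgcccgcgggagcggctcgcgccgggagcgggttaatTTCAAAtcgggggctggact
Rbl1: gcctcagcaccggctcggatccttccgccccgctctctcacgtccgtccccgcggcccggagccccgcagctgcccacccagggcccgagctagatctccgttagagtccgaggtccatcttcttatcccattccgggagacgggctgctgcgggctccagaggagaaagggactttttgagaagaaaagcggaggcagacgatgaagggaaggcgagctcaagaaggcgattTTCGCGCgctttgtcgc

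E2f7 had the most E2F heptamers of these windows, 3, at -223 to -217, -198 to -192 and -92 to -86 from the start. E2f8 had 1, at -111 to -105, which overlaps a CCAAT box on the other strand, and a TTTGAA on the other strand at -20 to -15. In E2f3 a TTTGAA at -23 to -18 was followed by an E2F heptamer on the other strand at -11 to -5, and a second heptamer stood after the start, at 19 to 25. Rbl1 had a single TTCGCGC at -17 to -11, and E2f2 had its heptamer at 41 to 47, after the start. The windows of E2f1 and Mybl2, and the second windows of E2f2 and E2f3, held no E2F heptamer. In all, 5 of the 9 windows held an E2F heptamer, against 9.57% of 32851 windows of the same length. TTTGAA was found in 3 of the 9, against 17.9% of all, and CCAAT in 5 of the 9, against 37.4%. Letters of the YY1 site, AAGATGG or ATGGCGG, were found in 1 of the 9 windows, that of Rbl1 at -135 to -129 on the other strand, against 9.37% of all. A match of letters is a description of the window and not evidence of binding.

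**Figure D3:**
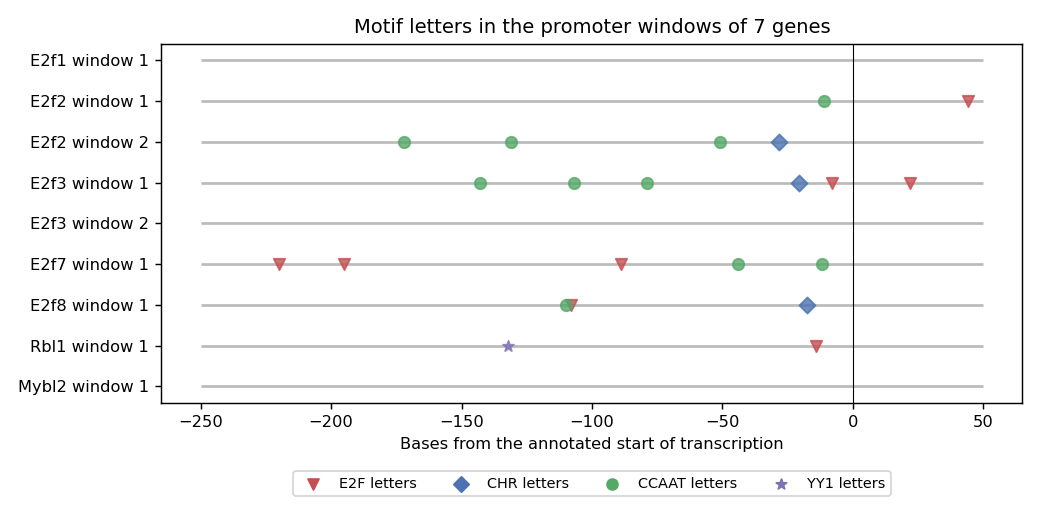
Positions of the motif letters in the 9 promoter windows, in bases from the annotated start of transcription, with a marker for each kind of motif on either strand. E2f7 carries 3 E2F heptamers before the start, and E2f1, Mybl2 and the second E2f3 window carry none of the letters.

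The pocket proteins differed from each other. Rb1, the retinoblastoma gene, had no called probe set. Its brighter probe set, 1417850_at, read 725 and 656 in the control arrays and 490 and 583 in the knockout arrays, with both knockout arrays below both controls (-0.36 ± 0.12), and was called lower without knockout replicate 2. Its other probe set, 1444400_at, read 214 and 179 against 165 and 186, which overlap. Rbl1 encodes p107, the pocket protein whose own gene is an E2F target in dividing cells. Of its 4 probe sets only 1432604_at was called, at 293 and 243 in control and 413 and 398 in knockout arrays (0.57 ± 0.12). The brightest, 1424156_at, read 678 and 613 against 650 and 700 (0.06 ± 0.11). Probe set 1425166_at read 270 and 315 against 316 and 273 (0.01 ± 0.12), and 1454293_at stayed at 33.3 to 39.5 in all 4 arrays, at background. The higher reading of Rbl1 thus came from 1 of its 3 probe sets above background.

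Lin9, the MuvB subunit that Mybl2 and Foxm1 attach to, was higher in both knockout arrays with both probe sets. Probe set 1443984_at, which was called, read 126 and 133 in control and 196 and 190 in knockout arrays (0.53 ± 0.10). Probe set 1428639_at read 238 and 204 against 323 and 247 (0.34 ± 0.15). In the first the 2 knockout arrays were close together, and in the other knockout replicate 1 stood apart.

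Mybl2, the B-Myb factor that joins MuvB at the start of G2/M transcription, was dim but higher in both knockout arrays with both probe sets. Both were called, but the call of 1454946_at was lost with a pseudocount of 4 or 64 and when any 1 of the 4 arrays was left out. Probe set 1417656_at read 74.1 and 61.1 in control and 149 and 107 in knockout arrays (0.77 ± 0.16). Probe set 1454946_at read 72.7 and 87.3 against 112 and 109 (0.40 ± 0.11). The control levels were not far above background, and on the log2(intensity + 16) scale the change of such dim probe sets is understated.

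Foxm1, the forkhead factor that takes over MuvB in G2 and mitosis, gave opposite readings with its probe sets. Probe set 1448834_at read 144 and 148 in the control arrays and 303 and 273 in the knockout arrays (0.91 ± 0.10, 1.87-fold higher on this scale). Probe set 1448833_at read 458 and 473 in control and 262 and 327 in knockout arrays (-0.64 ± 0.13, 1.56-fold lower). In each the groups were well separated, and both were called, in opposite directions. Probe set 1417748_x_at read 205 and 241 against 238 and 280, with overlapping groups (0.20 ± 0.13). Probe set 1437138_at read 26.9 and 25 against 34.4 and 30.7, within the range of background. Its log2 difference was 0.21 ± 0.10, and it was not called. No direction for the gene as a whole follows from these 4 probe sets, and which part of the transcript each reads was not analysed here. Probe sets called in opposite directions occurred in 41 of the 1764 genes with at least 2 called probe sets.

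**Figure D4:**
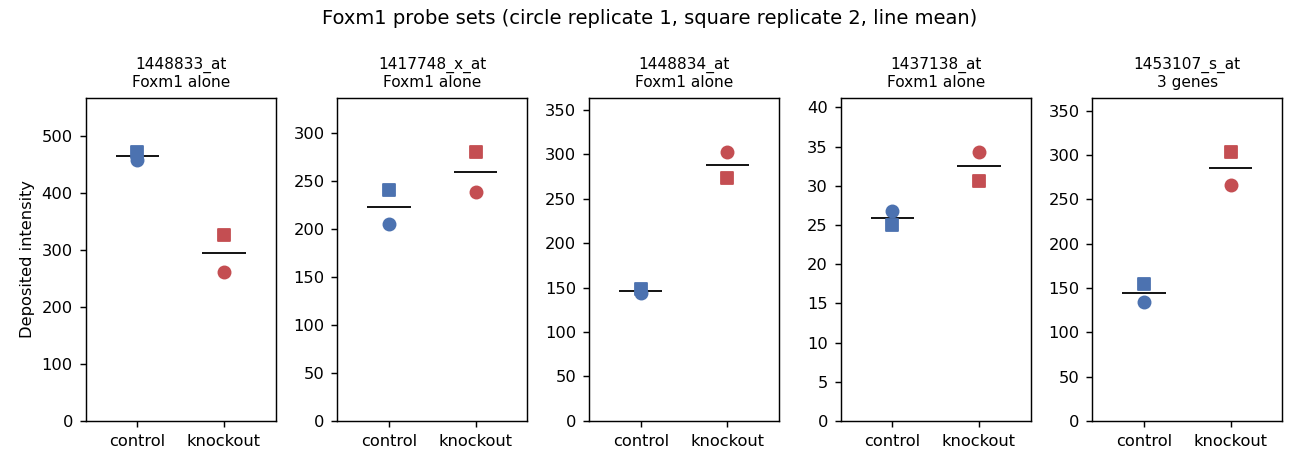
Deposited intensity of the 4 Foxm1 probe sets and of 1453107_s_at, which is annotated to 3 genes, in control (blue) and knockout (red) arrays, each panel with its own axis from 0. 1448833_at is lower and 1448834_at higher in both knockout arrays.

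The genes that these factors control were higher in the knockout in large part, with values from a fit over 18193 genes, each by its brightest probe set, in which 13.4% of genes were called higher and 10.9% lower. The lists of pathway genes hold none of the 10 genes above. Cell cycle genes were known to be higher in these arrays when the lists were drawn up, so their counts are no independent evidence of direction. Of 37 measured G2/M target genes of Mybl2-MuvB and Foxm1, 32 rose and none fell, with a median log2 difference of 0.78, against 0.01 over all genes. Bub1, a kinase of the spindle checkpoint, rose from 213 and 188 to 604 and 483 (1.36 ± 0.13, adjusted p = 0.00115 by limma). Cdk1, the kinase that starts mitosis, rose from 990 and 1034 to 1927 and 2060 (0.97 ± 0.10). The other genes with the smallest p were Hmmr, a spindle protein (0.91 ± 0.09), the checkpoint kinase Ttk (1.09 ± 0.11), the kinetochore gene Cenpf (0.91 ± 0.10) and the centrosome kinase Nek2 (0.96 ± 0.11), with adjusted p between 0.00115 and 0.00193 by limma for these 6 genes. With their dimmest probe sets Cenpf and Nek2 were not called (0.21 and 0.47). With each gene of the list read by its dimmest probe set, 22 were called higher and the median was 0.56. In 36 of the 37 genes both knockout arrays lay above both controls, which holds for 31.5% of all probe sets. The share over all genes by their brightest probe sets was not computed. Mki67, a general marker of dividing cells, read 4646 and 4912 in control and 5820 and 5995 in knockout arrays (0.31 ± 0.10) and missed the threshold (adjusted p = 0.0599 by limma), which it passed with a pseudocount of 64, with quantile normalization, with the filter on dim genes and with a trended prior.

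Of 38 measured G1/S targets of E2F, 24 rose and none fell, with a median of 0.52, and 12 rose without control replicate 2. Mcm4, a subunit of the replicative helicase, rose from 806 and 758 to 1841 and 1565 (1.10 ± 0.11, adjusted p = 0.00140 by limma). Rrm1, the large subunit of ribonucleotide reductase, rose from 1377 and 1382 to 2765 and 2492 (0.92 ± 0.10), although its dimmest probe set gave -0.01. Mcm7 of the same helicase (0.82 ± 0.10), the clamp loader subunit Rfc4 (0.95 ± 0.11), the mismatch repair gene Msh6 (0.78 ± 0.10) and the replication factor Mcm10 (0.73 ± 0.10) followed, with adjusted p of 0.00324 or less by limma. Among the members that did not pass were Ccne1, the cyclin that E2F induces at the entry to S phase (0.14 ± 0.13), and Tk1, thymidine kinase (0.13 ± 0.10), chosen after their values were seen.

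In their promoter windows, E2F heptamers were found in 26 of 41 windows of the G1/S genes and in 5 of 34 windows of the G2/M genes. TTTGAA was found in 5 of 41 and 24 of 34, respectively. Over all 32851 windows the shares were 9.57% for the E2F heptamers and 17.9% for TTTGAA. The lists were drawn up as known targets of E2F and of Mybl2-MuvB and Foxm1, so these counts are no independent evidence.

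Among the partners of these factors outside the 10 genes, 2 of 12 rose and 1 fell, shares near the 13.4% and 10.9% of all genes. Tfdp1, the DP partner with which activator E2F proteins bind DNA, rose from 1899 and 1936 to 3515 and 3180 (0.80 ± 0.10, adjusted p = 0.00253 by limma). Mybl1, the A-Myb relative of Mybl2, rose from 58.9 and 44.6 to 136 and 118 (1.09 ± 0.13), from a level close to background. Lin52, a MuvB subunit, fell from 113 and 117 to 83.1 and 85.3 (-0.39 ± 0.09, adjusted p = 0.0246 by limma), and was not called when any 1 of the 4 arrays was left out. The E2F proteins that act mainly as repressors were not called: E2f4 gave -0.07 ± 0.10, E2f5 -0.27 ± 0.10 and E2f6 -0.12 ± 0.12. Rbl2, the pocket protein p130 of resting cells, gave -0.04 ± 0.10. Tfdp2, a second DP gene, gave 0.27 ± 0.12, and Lin54, the DNA-binding MuvB subunit, 0.31 ± 0.10, neither of them called.

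Of 18 genes that set the phosphorylation of the pocket proteins, 10 rose and 2 fell, against 13.4% and 10.9% of all genes. The share that fell was near that of all genes. Fewer rose when control replicate 1, control replicate 2 or knockout replicate 1 was left out. Cks1b, which helps Skp2 mark the inhibitor p27 for destruction, rose from 1790 and 1890 to 3884 and 3714 (1.04 ± 0.10, adjusted p = 0.00101 by limma), and Skp2 by 0.97 ± 0.12. The D-type cyclin Ccnd3 rose by 0.97 ± 0.14, but gave 0.09 with its dimmest probe set, which was not called, and its kinase Cdk4 by 0.59 ± 0.09. Mnat1 (0.69 ± 0.11) and Ccnh (0.62 ± 0.12), parts of the kinase that activates Cdk proteins, rose as well, but Ccnh was not called with its dimmest probe set (0.33) or without control replicate 2. Cdkn2b, the Cdk4 inhibitor p15, fell from 1601 and 1760 to 903 and 1029 (-0.79 ± 0.11, adjusted p = 0.00359 by limma). Cdkn1b, which encodes p27, fell by 0.33 ± 0.10 (adjusted p = 0.0473 by limma), and was not called when any 1 of the 4 arrays was left out. The inhibitors did not all go the same way. Cdkn2c (0.44 ± 0.10) and Cdkn2d (0.38 ± 0.11), named after their values were seen, were called higher, and Cdkn1c and Cdkn2a were not called. Ccnd1, the D-type cyclin of Wnt signalling, gave 0.09 ± 0.11, and Cdkn1a, the p53 target p21, -0.23 ± 0.15, neither of them called. Without knockout replicate 2, Cdkn1a was called lower at -0.45.

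**Figure D5:**
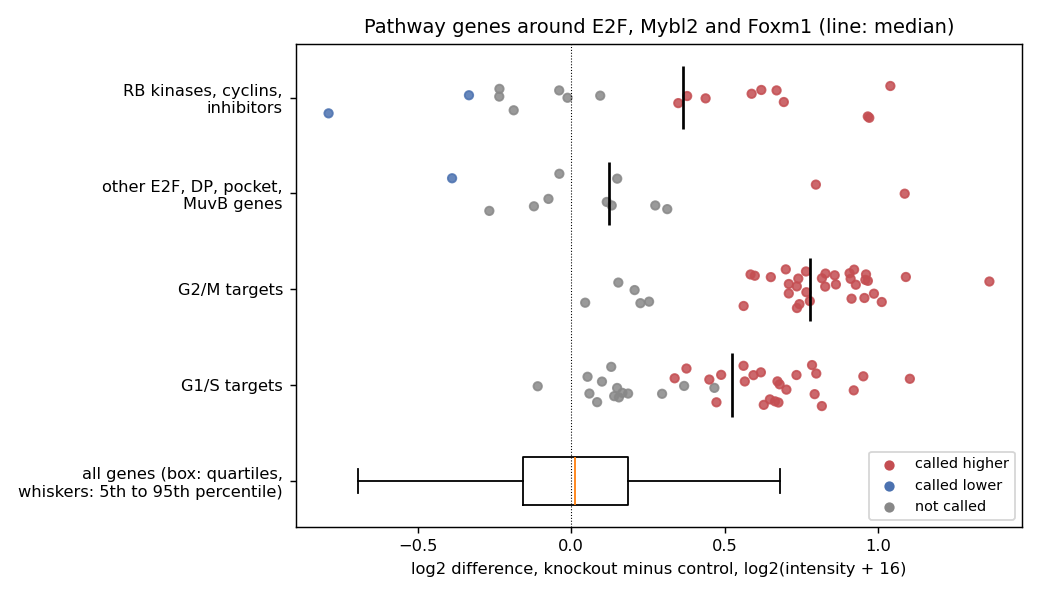
Log2 difference, knockout minus control on log2(intensity + 16), of the measured genes in 4 lists (points, red called higher, blue called lower, grey not called, black line the median) and of all genes (box of quartiles, whiskers from the 5th to the 95th percentile). The medians of the G2/M and G1/S lists are 0.78 and 0.52, and that of all genes is 0.01.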

How the data were processed

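The authors deposited 1 linear intensity per probe set and array for 4 Affymetrix arrays; per the labels' protocols, crypts were freed with EDTA, passed through a 70 um filter, and RNA was isolated with Trizol. How intensities were summarised, background-corrected and normalised is not given in the sources used here. Depth has no meaning for arrays, and the number of arrays limits the precision. Gene names came from GEO's platform annotation, updated through Entrez IDs by a RefSeq table of GRCm38.p6: of 45101, 64 were array controls, 34945 named 1 gene, 932 several and 9160 none.

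Intensities were used without further scaling. Fits used log2(intensity + 16) in limma 3.58.1 (R 4.3.3; lmFit, eBayes, no block), over 45037 probe sets for the 10 genes and over 18193 genes, each by its brightest probe set, for the lists. The degrees of freedom of the probe set fit were 7.34. The genes, lists and rules were chosen with earlier results of these data known. Every probe set of the 10 genes was given; from each list up to 6 called genes per direction with the smallest p, and Yy1, Mki67, Cdkn1a, Ccnd1, E2f4, E2f5, E2f6, Rbl2, Tfdp1, Tfdp2 and Lin54 always. P-values measure only the spread between these samples, which limma partly pools across the probe sets or genes of a fit. Some listed genes are not reported here. Simulated data had 200 changed features in each of 10 draws. There the fit over 45037 probe sets recovered 75.2% of 2-fold changes and 3.00% of 1.5-fold changes. The fit over 18193 genes recovered 89.0% and 21.9%. The real arrays had far more calls, 4921 probe sets higher and 4092 lower, so the adjustment was less strict there. The recovered shares therefore do not carry over to these data. Alternatives covered the pseudocount, scaling, a filter on dim probe sets, the prior, the block, the choice of probe set and each array left out.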

Additional observations from a re-analysis of the deposited data

Results flagged for a closer look

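Another probe set that lists Foxm1, 1453107_s_at, is also annotated to Tex52 and Pebp1 and so lay outside the comparisons. It read 134 and 154 in the control arrays and 267 and 304 in the knockout arrays, a log2 difference of 0.91 ± 0.12. Which of the 3 genes the signal came from was not analysed here.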

How the results depend on the processing

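The counts of calls over all probe sets, all genes, the probe sets of the 10 genes and the 4 pathway lists kept within 1.5 times of those given above under each alternative, except as follows. Marker lists, counts of groups without overlap and counts of genes with opposite calls were not recomputed. With a pseudocount of 4, 6 probe sets of the 10 genes were called higher, and 1 gene of the RB kinase and inhibitor list was called lower. With each gene read by its dimmest probe set, 6 genes of that list were called higher, and 0 of the other E2F, DP, pocket protein and MuvB genes were called lower. With 1 array left out at a time, the probe sets of the 10 genes called higher ranged from 2 to 10 and those called lower from 0 to 2. Over all probe sets the ranges were 2056 to 4629 higher and 1949 to 3908 lower, and over all genes 1139 to 2293 and 1032 to 2046. In the G1/S list 12 to 24 were called higher, in the G2/M list 30 to 32, and in the RB list 5 to 9 higher and 1 to 2 lower. In the list of other E2F, DP, pocket protein and MuvB genes 2 were called higher and 0 lower in each of these fits. In such fits the lone array of a group is assumed to vary like the others.

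Signs turned only among probe sets and genes that were not called, apart from Rrm1, at -0.014 with its dimmest probe set. With 1 array left out at a time, E2f3 1434564_at ranged from -0.054 to 0.24, Rbl1 1424156_at from -0.0076 to 0.13, Rbl1 1425166_at from -0.098 to 0.11, Rbl1 1454293_at from -0.105 to 0.064, E2f4 from -0.15 to 0.0010 and Rbl2 from -0.080 to 0.0027. Rbl1 1425166_at gave -0.019 with quantile normalization. With the dimmest probe sets Ccnd1 gave -0.051, E2f5 0.12 and Tfdp2 -0.17. The cause was not tested.

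With the replicate number as a block, 5425 probe sets were called higher and 4536 lower, with 10 and 1 among the 10 genes, and the list counts were 26 and 0 (G1/S), 32 and 0 (G2/M), 10 and 2 (RB) and 2 and 1. Same-numbered arrays deviated together at r = 0.0957 across probe sets, and no label says that the numbers pair the samples.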
